A study of Mus musculus with 12 samples.

Results

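The 40 genes described here encode the core machinery of autophagy and its main cargo receptors. They were taken by symbol from the deposited count table of mouse bone marrow neutrophils, and all 40 were found among its 29737 genes. Their expression was compared between cells kept for 24 h with PBS, the vehicle, and cells kept with 1 of 3 conjugated primary bile acids. The cells came from wild-type mice, which the study's methods describe as female C57BL/6 animals, and each of the 4 groups held 3 samples. Taurocholic acid (TCA) and glycocholic acid (GCA) are cholic acid joined to taurine or to glycine, and both were used at 200 μM. The third, Tβ-MCA, is the taurine conjugate of β-muricholic acid, a bile acid of rodents. Its dose is 10 μM in the sample labels, while the study's methods give it the same dose as the other bile acids. The count columns and the series description write GA where the sample titles write GCA, and these columns were read as GCA. Neither source says whether samples came from separate animals, so the p-values measure the spread between these samples, which may be technical.

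Autophagy encloses cytoplasm, damaged organelles or microbes in a double membrane, the autophagosome, which then fuses with the lysosome. A kinase complex around ULK1 starts the process, a class III phosphatidylinositol 3-kinase complex marks the membrane with PI3P, and a pair of ubiquitin-like conjugation systems attaches proteins of the ATG8 family (LC3 and GABARAP) to it. Receptors such as p62, the product of Sqstm1, bind both the cargo and the ATG8 proteins. In neutrophils the pathway is known for its part in differentiation, degranulation and the release of extracellular traps. Messenger RNA levels do not show how much material passes through the pathway, which depends largely on protein modification and turnover.

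Total counts were 32757389 to 41375925 per sample, and the lowest count of any of the 40 genes in any sample was 27, so all of them passed the filter on low counts. The defining neutrophil markers, among them Ly6g, S100a8 and S100a9, were detected in every sample. Ly6g and S100a8 were lower with Tβ-MCA than with PBS (log2 fold change -0.99 and -0.30, edgeR adjusted p = 0.0208 and 0.0402). S100a9 did not pass (-0.30, edgeR adjusted p = 0.0631). One library stood apart: Tβ-MCA replicate 5 lay between PBS and the other Tβ-MCA samples in the summed markers of monocytes and of immature granulocytes. Results for Tβ-MCA are given with and without it. Since it was singled out for lying toward PBS, leaving it out tends to enlarge differences from PBS and to lower their p-values. Values without it are therefore no separate support. In bulk samples, fewer cells of a type and less RNA per cell cannot be told apart. Counting limits cover counting error only.

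In PBS the autophagy genes spanned a wide range of levels, given here as RPKM. These are counts scaled to the depth of the library and to the exon length of the annotation, so the order of genes depends on that length. Sqstm1 had the highest mean, 117.93 ± 8.65 RPKM (SD, n = 3), followed by Atg3 at 117.91 ± 9.92 RPKM. Atg3 encodes the E2-like enzyme that passes ATG8 proteins to phosphatidylethanolamine. These neighbours in the order did not differ beyond their spread. The ATG8 gene Gabarap came next at 100.6 ± 15.5 RPKM. Optn, which encodes the receptor optineurin, was at 66.6 ± 1.63 RPKM, and Atg101, a subunit of the ULK1 complex, at 64.5 ± 1.12 RPKM.

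At the other end, Atg10, the E2-like enzyme for ATG12, had the lowest level at 0.618 ± 0.191 RPKM. Pik3r4, the regulatory subunit of the PI3P kinase, was at 1.88 ± 0.243 RPKM and Epg5, a tether between autophagosome and lysosome, at 2.13 ± 0.209 RPKM. The protease gene Atg4c followed at 2.61 ± 0.125 RPKM and Atg14, the autophagy-specific subunit of the PI3P kinase complex, at 3.46 ± 0.140 RPKM. Pik3r4 and Epg5 overlapped in their spread. Thus single steps drew on genes of very unequal level, since the 7 conjugation genes alone ran from 0.618 to 117.9 RPKM.

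**Figure D1:**
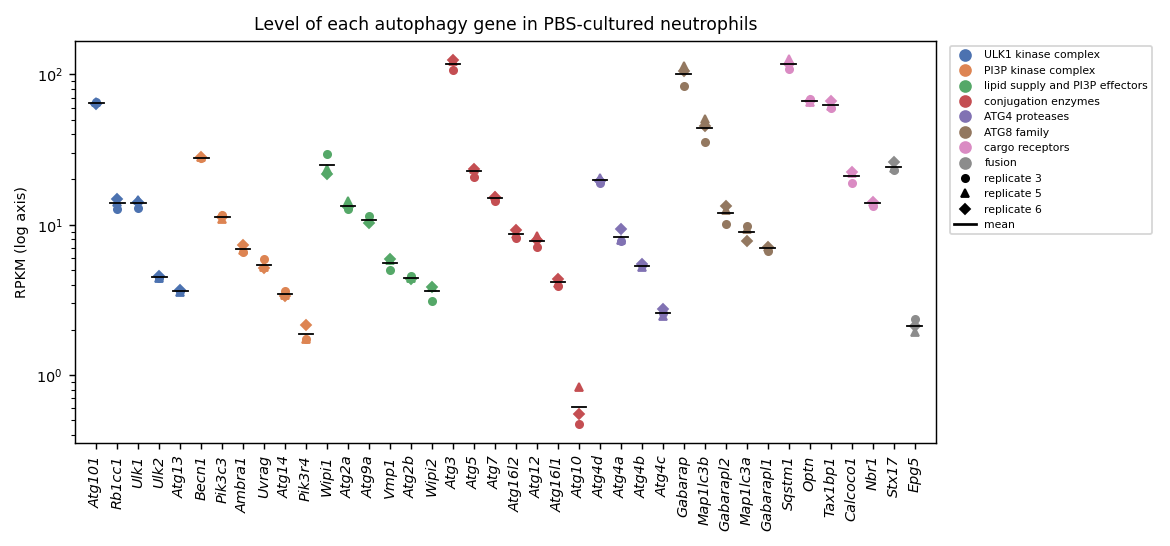
RPKM of each autophagy gene (log axis) in the 3 PBS samples, grouped and coloured by step of the pathway, with a line at the mean. The means run from 0.618 RPKM for Atg10 to 117.9 RPKM for Sqstm1, and the 3 samples of a gene lie close together compared with this range.

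The 5 ATG8 genes differed in RPKM. Gabarap held 58.3% ± 0.930 (SD, n = 3) of their summed RPKM in PBS and Map1lc3b, which encodes LC3B, held 25.3% ± 0.779. Gabarapl2 held 6.93% ± 0.466, Map1lc3a 5.31% ± 1.25 and Gabarapl1 4.08% ± 0.458. The shares of Gabarapl2 and Map1lc3a overlapped between samples, as did those of Map1lc3a and Gabarapl1. The order of Gabarap and Map1lc3b rests on the exon lengths used, 1844 and 7517 bases. In CPM, which is not scaled to length, Map1lc3b was the higher in every PBS sample (275, 380 and 343 against 157, 211 and 195). The stability of single genes differed as well. Over all 12 samples the highest RPKM of Becn1, which encodes the scaffold Beclin 1, was 1.07 times the lowest, while that of Atg10 was 2.21 times the lowest and that of Atg16l2 was 1.80 times the lowest.

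With Tβ-MCA, 7 of the 40 genes rose against PBS and none fell at a Benjamini-Hochberg adjusted p under 0.05 over all 16761 genes tested (edgeR quasi-likelihood test). They were Atg7, Atg16l2 and Atg5 of the conjugation systems, Gabarapl1 of the ATG8 family, Ulk2 of the ULK1 complex, Uvrag of the PI3P kinase complex and Atg2b of lipid transfer. The rises were modest, between 1.20-fold and 1.42-fold. These 7 genes are 17.5% of the 40, where 7.62% of all genes tested passed the same test, 4.44% higher and 3.18% lower. Without Tβ-MCA replicate 5 the count was 11 of 40, 9 higher and 2 lower, where 18.0% of all genes passed, 8.52% higher and 9.44% lower. None of the 40 met the study's cutoffs of an unadjusted p under 0.05 with a fold of at least 2, which 2.95% of all genes met.

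At an unadjusted p under 0.05, 12 of the 40 genes were higher and 4 lower with Tβ-MCA, where 24.9% of all genes reached this, 12.6% higher and 12.3% lower. The Tβ-MCA and PBS samples did not overlap for 19 genes, 15 higher and 4 lower, which is 47.5% where all genes gave 27.0%, 14.1% higher and 12.8% lower. The median log2 fold change of the 40 genes was 0.09, against 0.00 over all genes tested, and 27 of 40 estimates lay above 0, where 50.6% of all estimates did. The adjusted calls depended on single samples: leaving out PBS replicate 3, 5 or 6, or Tβ-MCA replicate 3 or 4, gave 0 of 40 each time, with 11 to 14 genes at an unadjusted p under 0.05 and 0 to 168 genes called in the whole table. Fitting only the PBS and Tβ-MCA samples also gave 0 of 40, with 14 at an unadjusted p under 0.05 and 0 genes called in the whole table.

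**Figure D2:**
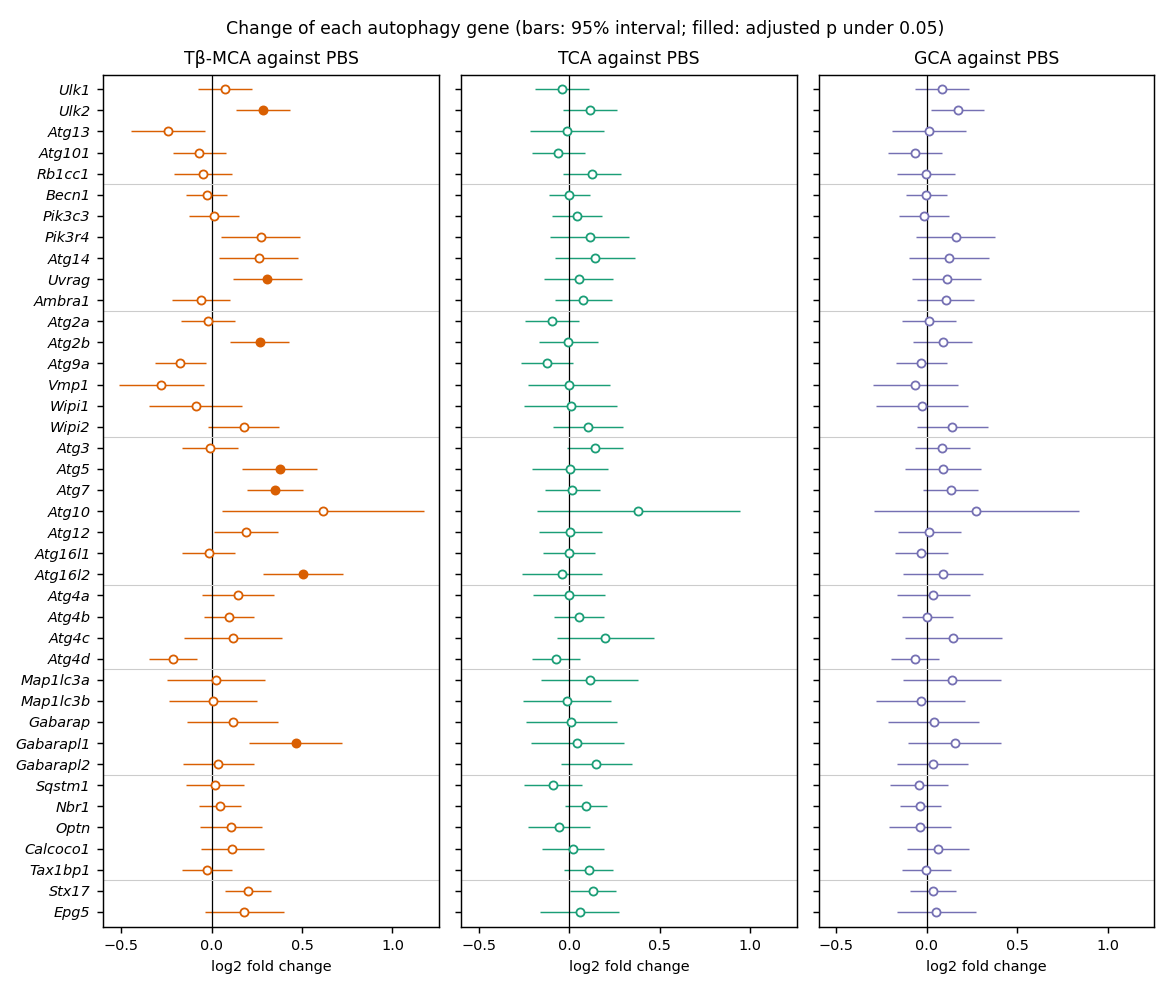
Log2 fold change of each of the 40 genes against PBS for Tβ-MCA, TCA and GCA, with bars for the 95% interval and grey lines between the steps of the pathway. Filled points passed an adjusted p under 0.05, which holds for 7 genes with Tβ-MCA and for none with TCA or GCA.

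The conjugation systems held 3 of the 7 rises. Of their 7 genes, 5 were higher with Tβ-MCA in every sample than in any PBS sample, where 14.1% of all genes were, and the group's median log2 fold change was 0.35. Atg7 encodes the E1-like enzyme that activates both ATG12 and the ATG8 proteins (chromosome 6, 114643097 to 114860614, plus strand, in GRCm38). It was at 103, 109.7 and 107 CPM in PBS and at 143, 142 and 123 CPM with Tβ-MCA. With TCA it was at 114, 103 and 106 CPM and with GCA at 116, 124 and 109.7 CPM. All Tβ-MCA samples but replicate 5 lay above every other sample, and the log2 fold change against PBS was 0.35 (SE 0.07, adjusted p = 0.0208). Without replicate 5 it was 0.42 with an adjusted p of 0.000818.

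Atg16l2 encodes a relative of ATG16L1, the protein that guides the ATG12-ATG5 conjugate to the membrane (chromosome 7, 101263034 to 101302251, minus strand). Its levels were 70.7, 74.5 and 77.8 CPM in PBS and 122, 108 and 87.1 CPM with Tβ-MCA. TCA gave 76.1, 71.0 and 70.1 CPM, and GCA 72.8, 88.3 and 76.1 CPM. The Tβ-MCA samples did not overlap with PBS or TCA, and GCA replicate 4 was slightly above Tβ-MCA replicate 5. At 0.51 (SE 0.10, adjusted p = 0.0208) it had the largest log2 fold change of the 7, and at 0.63 (adjusted p = 0.000208) it kept that place without replicate 5. Its exons overlap those of Fchsd2 on the opposite strand, and since the strand setting of the counting is not stated, reads of this pair may be mixed.

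Atg5 encodes the partner that ATG12 is joined to (chromosome 10, 44268358 to 44364291, plus strand). It measured 50.003, 56.1 and 55.3 CPM in PBS against 71.9, 77.0 and 60.6 CPM with Tβ-MCA. The TCA samples were at 54.7, 50.7 and 56.5 CPM and the GCA samples at 53.6, 65.3 and 52.8 CPM. Here too GCA replicate 4 exceeded Tβ-MCA replicate 5. The log2 fold change was 0.38 (SE 0.10, adjusted p = 0.0333), or 0.47 without replicate 5 (adjusted p = 0.00279).

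The other conjugation genes moved less clearly. Atg10 had a log2 fold change of 0.62 with a wide 95% interval of 0.06 to 1.17, and Atg12 one of 0.19 (0.02 to 0.37). Their adjusted p-values were 0.156 and 0.161. For Atg3 and Atg16l1 the estimates were -0.01 (-0.16 to 0.15) and -0.02 (-0.16 to 0.13), so a change of the size seen for Atg7 lay outside these intervals.

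The start regions of the 3 conjugation genes are shown because they hold letters that known regulators of autophagy or stress genes bind. The sequences are parts of RefSeq promoter windows of GRCm38.p6, which reach from 250 bases before to 50 after a start. For Atg5 and Atg7 the bases from 150 before to 10 after the start are printed. For Atg16l2 only 30 bases around the site are printed. Motifs were counted over the whole windows, and such a window was found for 33 of the 40 genes. Capitals mark CACGTG, the E-box at the core of the element read by TFEB, and TGACGTCA, the cAMP response element. Both read the same on either strand and they did not overlap each other here.
Atg5, chr10:44268189-44268348, plus strand: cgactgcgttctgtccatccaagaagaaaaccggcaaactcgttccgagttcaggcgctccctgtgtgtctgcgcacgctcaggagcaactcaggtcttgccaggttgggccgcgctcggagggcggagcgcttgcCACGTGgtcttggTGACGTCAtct
Atg7, chr6:114670946-114671105, plus strand: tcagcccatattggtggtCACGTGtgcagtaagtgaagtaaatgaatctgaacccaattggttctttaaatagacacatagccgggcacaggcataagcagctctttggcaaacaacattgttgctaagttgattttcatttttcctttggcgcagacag
Atg16l2, chr7:101302088-101302117, minus strand: tgctgccgcccTGACGTCAtggagtccccg

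In Atg5 the E-box began 14 bases before the RefSeq start and the cAMP response element 1 base before it. In Atg7 the E-box began 132 bases before a start that lies inside the gene of the deposited table. In Atg16l2 the cAMP response element began 18 bases before a RefSeq start. That start and the element also lie inside the gene of the deposited table, which reaches upstream to position 101302251. Among the windows of the 40 genes, CACGTG was in 4 of 39 (10.3%), in the genes Atg3, Atg5, Atg7 and Atg14, against 7.15% of all 32851 windows. TGACGTCA was in 2 of 39 windows (5.13%), those of Atg5 and Atg16l2, against 1.79% of all. TGTTTAC, a core that FOXO factors bind, searched on both strands, was in none of the 39 windows and in 3.65% of all. These are matches of letters, and binding was not measured.

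Gabarapl1 was the only ATG8 gene that rose. It was at 13.8, 14.4 and 14.4 CPM in PBS and at 22.6, 19.8 and 16.5 CPM with Tβ-MCA. With TCA it was at 14.2, 15.3 and 14.4 CPM, and with GCA at 13.9, 18.6 and 14.96 CPM. The log2 fold change with Tβ-MCA was 0.47 (SE 0.12, adjusted p = 0.0331), and 0.58 without replicate 5 (adjusted p = 0.00301). Its share of the ATG8 RPKM was 5.26% ± 0.983 (SD, n = 3) with Tβ-MCA, and its lowest Tβ-MCA share, 4.54%, was below the highest of PBS, 4.59%. An exon of 1700101I11Rik overlaps it on the opposite strand.

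The abundant ATG8 genes gave no such difference. Map1lc3b was at 275, 380.4 and 343 CPM in PBS and at 301, 359 and 344 CPM with Tβ-MCA, a log2 fold change of 0.01 (95% interval -0.24 to 0.25). It was at 312, 318 and 359 CPM with TCA and at 285, 345 and 346 CPM with GCA. Gabarap was at 157, 211 and 195 CPM in PBS, 188, 229.5 and 192 CPM with Tβ-MCA, 169.8, 198 and 199 CPM with TCA and 168, 206 and 204 CPM with GCA. Its log2 fold change with Tβ-MCA was 0.12 (-0.14 to 0.37), and the groups of both genes overlapped.

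Gabarapl2 was at 23.9, 29.2 and 31.0 CPM in PBS, 28.1, 28.7 and 29.6 CPM with Tβ-MCA, 29.4, 30.3 and 33.8 CPM with TCA and 27.7, 29.4 and 29.0 CPM with GCA. Map1lc3a was at 11.8, 11.1 and 9.28 CPM in PBS, 12.2, 9.72 and 10.9 CPM with Tβ-MCA, 12.6, 10.1 and 12.2 CPM with TCA and 12.8, 10.7 and 11.98 CPM with GCA. Their log2 fold changes with Tβ-MCA were 0.04 (-0.16 to 0.23) and 0.03 (-0.24 to 0.30). For Map1lc3b, Gabarapl2 and Map1lc3a the sign turned when single samples were left out.

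Ulk2, a kinase related to ULK1, was at 27.1, 26.7 and 27.4 CPM in PBS and at 33.4, 34.2 and 31.3 CPM with Tβ-MCA. It was at 28.6, 30.1 and 29.3 CPM with TCA and at 29.0, 31.6 and 30.7 CPM with GCA. All bile acid samples were above all PBS samples, and the log2 fold change with Tβ-MCA was 0.28 (SE 0.07, adjusted p = 0.0290; 0.00871 without replicate 5). Ulk1 itself was at 85.3 to 95.9 CPM in PBS and 94.0 to 97.8 CPM with Tβ-MCA, a log2 fold change of 0.07 (-0.07 to 0.22). Of the partners of the kinases, Atg13 was lower: 16.1, 15.7 and 16.0 CPM in PBS against 12.8, 12.2 and 15.5 CPM with Tβ-MCA, 16.1, 15.4 and 15.9 CPM with TCA and 15.01, 16.6 and 16.7 CPM with GCA. The log2 fold change of Atg13 was -0.24 with an adjusted p of 0.137, and it passed only without Tβ-MCA replicate 5 (-0.35, adjusted p = 0.0161).

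Uvrag, a subunit of the PI3P kinase complex that acts in autophagosome and endosome maturation, was at 54.8, 47.7 and 46.7 CPM in PBS and at 66.3, 62.6 and 55.8 CPM with Tβ-MCA. It was at 56.5, 51.5 and 46.8 CPM with TCA and at 56.5, 54.2 and 50.3 CPM with GCA. The lowest Tβ-MCA sample was thus close to the highest PBS sample. Its log2 fold change of 0.31 (SE 0.09) had an adjusted p of 0.0487, the highest of the 7, and 0.0104 without replicate 5. Gm45187 overlaps its exons on the opposite strand. Atg14 was at 12.8, 11.9 and 11.6 CPM in PBS, 16.2, 14.2 and 13.01 CPM with Tβ-MCA, 13.96, 13.4 and 12.8 CPM with TCA and 14.2, 13.4 and 11.9 CPM with GCA. Its log2 fold change of 0.26 passed only without replicate 5 (0.33, adjusted p = 0.0443, against 0.130 over all samples). Becn1 and Pik3c3, the scaffold and the catalytic subunit of the same complex, gave -0.03 (-0.14 to 0.08) and 0.01 (-0.12 to 0.15).

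Among the genes that supply lipid or read PI3P, Atg2b rose. It encodes a lipid transfer protein and was at 47.8, 45.3 and 44.6 CPM in PBS, and at 60.4, 56.5 and 48.9 CPM with Tβ-MCA. It was at 47.7, 45.5 and 44.0 CPM with TCA and at 49.2, 48.8 and 48.2 CPM with GCA. Its log2 fold change was 0.27 (SE 0.08, adjusted p = 0.0462), or 0.35 without replicate 5 (adjusted p = 0.00315). Vmp1, a lipid scramblase, and Atg9a, the scramblase carried by vesicles, were lower in every Tβ-MCA sample than in any PBS sample, with log2 fold changes of -0.28 and -0.17, but neither passed (adjusted p = 0.129 and 0.124). The exons of Vmp1 share bases with Mir21a on the same strand. Those of Atg9a share bases with Gm29253 on the same strand and with Ankzf1 on the opposite strand.

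The ATG4 proteases trim ATG8 proteins before conjugation and release them afterwards. Atg4d was at 141, 151 and 143 CPM in PBS and at 119, 122 and 134 CPM with Tβ-MCA, so the groups did not overlap. It was at 135, 141 and 137 CPM with TCA and at 138, 132 and 145 CPM with GCA. With a log2 fold change of -0.21 it was just outside the threshold (adjusted p = 0.0508), and inside it without replicate 5 (-0.27, adjusted p = 0.0104). Kri1 overlaps it on the opposite strand. The estimates of Atg4a, Atg4b and Atg4c were 0.14, 0.10 and 0.12, with adjusted p-values of 0.365, 0.374 and 0.608.

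None of the 5 cargo receptors passed with Tβ-MCA, with or without replicate 5. Sqstm1 was at 376, 429 and 397 CPM in PBS, 387, 419 and 409 CPM with Tβ-MCA, 362, 388 and 379 CPM with TCA and 344, 402 and 420.0 CPM with GCA. Its log2 fold change of 0.02 (95% interval -0.14 to 0.18) with Tβ-MCA was near 0 and turned sign in 3 alternatives. The other receptors gave 0.12 for Calcoco1, 0.11 for Optn, 0.05 for Nbr1 and -0.03 for Tax1bp1. Of the fusion genes, Stx17, the syntaxin of the completed autophagosome, was at 140.0, 143 and 155 CPM in PBS and at 175, 167 and 161 CPM with Tβ-MCA, and at 153, 164 and 163 CPM with TCA and 149, 152 and 147 CPM with GCA. Its log2 fold change of 0.20 with Tβ-MCA lay just outside the threshold (adjusted p = 0.0521), and inside it without replicate 5 (0.0250).

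**Figure D3:**
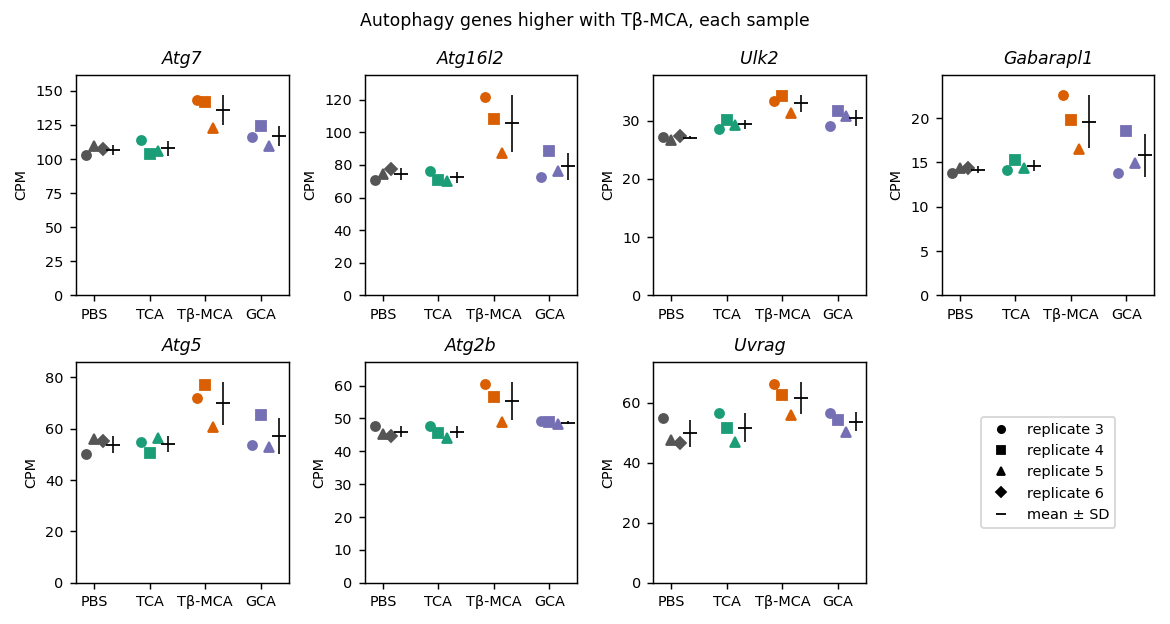
CPM, from 0, of the 7 genes that rose with Tβ-MCA, in each sample of the 4 groups, with symbols for the replicate number and a bar for mean ± SD. Tβ-MCA replicate 5 (triangle) is the lowest Tβ-MCA sample in all 7 panels and still above the 3 PBS samples.

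The 7 genes shared the place of replicate 5 among the Tβ-MCA samples, while the order of replicates 3 and 4 differed between genes. Replicate 5 was the lowest of the 3 in all 7 and above all PBS samples in all 7. It covered 23.7% (Atg2b) to 63.5% (Ulk2) of the distance from the PBS mean to the mean of replicates 3 and 4. The 7 were called for being higher than PBS, and replicate 5 was known to lie toward PBS. Its place in them is therefore no separate result, and the share of all genes with this order was not calculated. Among the GCA samples, replicate 4 was the highest for 5 of the 7 genes and above all PBS samples for 6 of 7. These counts were not set against all genes either. The summed level of 12 monocyte and macrophage markers followed the same samples in the other direction. It was 2695 to 3265 CPM in PBS, 2666 to 3245 CPM with TCA and 1785 to 2871 CPM with GCA, where 1785 CPM was replicate 4. With Tβ-MCA it was 349.8 and 407 CPM in replicates 3 and 4 and 2060 CPM in replicate 5. All 12 markers had a lower mean with Tβ-MCA, and none was at 0 in all samples. Over all samples 0 of 12 passed (edgeR), and 11 of 12 were called lower without replicate 5, where 9.44% of all genes were. Replicate 5 had been singled out partly by this sum, so the 11 are no separate support. Fn1 and F13a1 held 79.8% to 84.9% of this sum in PBS. The other 10 markers summed to 492 to 544 CPM in PBS, 410.1 to 554 CPM with TCA and 428 to 542 CPM with GCA, and to 245, 277 and 460.5 CPM in Tβ-MCA replicates 3, 4 and 5. Without Fn1 and F13a1, Tβ-MCA replicate 5 and GCA replicate 4 were thus within the range of the TCA samples but below every PBS sample. TCA replicate 3 (410.1 CPM) and GCA replicate 3 (443 CPM) were below every PBS sample too.

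Other lists moved with the same samples. The summed 6 markers of immature granulocytes gave 282 to 293 CPM in PBS, and the Tβ-MCA replicates 3, 4 and 5 gave 63.8, 82.8 and 225 CPM, against 240.2 to 256 CPM with TCA and 192 to 289 CPM with GCA. The 9 eosinophil markers summed to 164 to 289 CPM in PBS, 64.6 to 147 CPM with Tβ-MCA, 159 to 254 CPM with TCA and 133 to 282 CPM with GCA. The 12 neutrophil markers summed to 51346 to 63399 CPM in PBS, 41708 to 47142 CPM with Tβ-MCA, 49402 to 60463 CPM with TCA and 46895 to 58169 CPM with GCA. Over all samples 4 neutrophil markers (Ly6g, S100a8, Mmp9 and Camp), 1 eosinophil marker and 1 B cell marker were called lower. Of all genes tested, 3.18% were. Without replicate 5 these were 8, 4 and 1, with 5 of the 6 immature granulocyte markers and 1 T and NK cell marker. In that fit 9.44% of all genes were called lower. Replicate 5 had been singled out partly by the immature granulocyte sum, so those 5 are no separate support. B cell, dendritic cell, basophil and mast cell, T and NK cell and erythroid markers summed to at most 65.4 CPM in any sample. The part of other cell types in the rise of the autophagy genes was not tested.

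**Figure D4:**
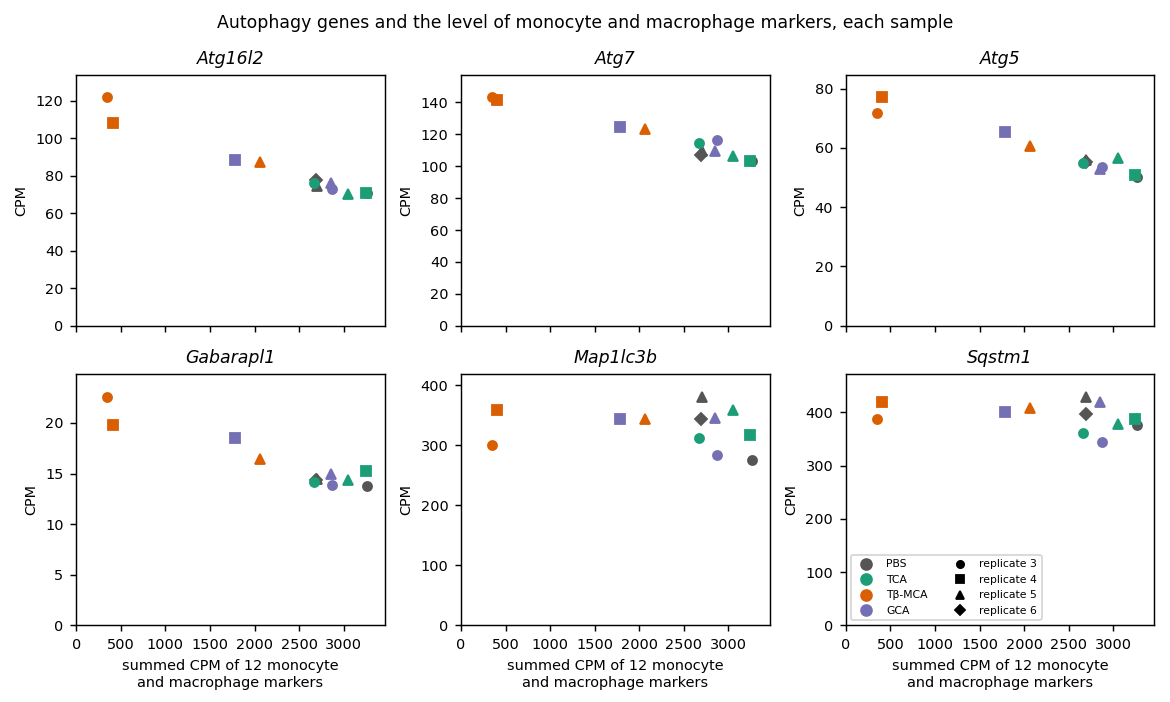
CPM of 6 autophagy genes against the summed CPM of 12 monocyte and macrophage markers, 1 point for each of the 12 samples (colour for the group, symbol for the replicate number). Tβ-MCA replicates 3 and 4 have the lowest marker sums (349.8 and 407 CPM) and the highest levels of Atg16l2, Atg7, Atg5 and Gabarapl1, while Map1lc3b and Sqstm1 show no such order. Fn1 and F13a1 make up 79.8% to 84.9% of the sum in PBS.

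Several rises were in 1 of a pair of related genes. To set them side by side, the RPKM ratio of the paralogs was taken within each sample, a measure chosen after the values had been seen. Atg16l2 was 2.07, 2.12 and 2.09 times Atg16l1 in PBS and 3.38, 3.21 and 2.45 times with Tβ-MCA. TCA gave ratios of 2.19, 1.92 and 2.03, and GCA 2.08, 2.46 and 2.29. The Tβ-MCA ratios were thus above all of PBS and TCA, with a mean log2 difference from PBS of 0.51. The exact permutation test, two-sided, gave p = 0.1, the smallest that 3 against 3 samples allow, and an adjusted p of 0.24 over 6 ratios, so this design cannot pass 0.05.

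The ratio of Ulk2 to Ulk1 was 0.303 to 0.345 in PBS and 0.362 to 0.389 with Tβ-MCA, which did not overlap (log2 difference 0.21, exact permutation p = 0.1). With TCA it was 0.341, 0.3695 and 0.3698, the first within the range of PBS and the others within that of Tβ-MCA (log2 difference from PBS 0.15, exact permutation p = 0.2), and with GCA 0.319 to 0.357. The ratio of Atg2b to Atg2a was 0.308 to 0.3602 in PBS and 0.349 to 0.453 with Tβ-MCA, and that of Gabarapl1 to Gabarapl2 was 0.536 to 0.665 and 0.644 to 0.928. Both of these overlapped between the groups (log2 difference 0.28 and 0.41, exact permutation p = 0.2 for each). The ratio of Gabarapl1 to Gabarap gave 0.34 (exact permutation p = 0.3) and that to Map1lc3b gave 0.44 (exact permutation p = 0.2).

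**Figure D5:**
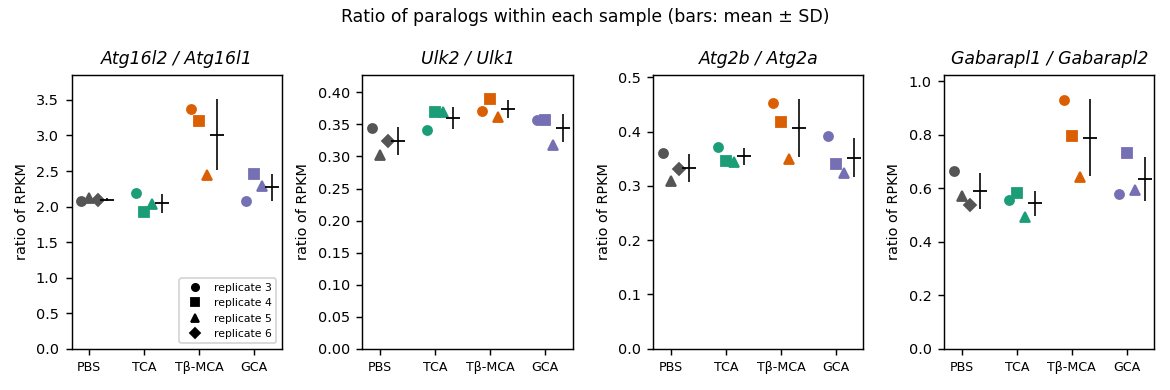
Ratio of the RPKM of 4 pairs of paralogs in each sample of the 4 groups, from 0, with bars for mean ± SD. Atg16l2 is 2.07 to 2.12 times Atg16l1 in the PBS samples and 2.45 to 3.38 times in the Tβ-MCA samples.

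With TCA, 0 of the 40 genes passed against PBS, as did 0 of all genes tested (edgeR), and DESeq2 also called 0 of the 40. At an unadjusted p under 0.05 there was 1 of the 40, Stx17 with a log2 fold change of 0.13 (adjusted p = 0.9999), where 3.26% of all genes reached this. Atg3 was next at 0.14 (adjusted p = 0.9999), with 344, 390.0 and 394 CPM in PBS and 389, 416 and 441 CPM with TCA, which overlapped through TCA replicate 3. It was at 347, 382 and 394 CPM with Tβ-MCA and at 402, 383 and 412 CPM with GCA. The 95% intervals of 39 of the 40 genes lay within 0.5 of 0 on the log2 scale, and the exception was Atg10.

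With GCA, 0 of the 40 and 0 of all genes passed against PBS as well (edgeR), and DESeq2 called 0 of the 40. At an unadjusted p under 0.05 there was again 1 of the 40, Ulk2 with a log2 fold change of 0.17 (adjusted p = 0.999), where 3.53% of all genes reached this. Atg7 followed at 0.13 (adjusted p = 0.999), and for Ulk2 every GCA sample was above every PBS sample. For Atg7 the lowest GCA and the highest PBS sample were nearly tied (109.733 and 109.726 CPM). Without GCA replicate 4 none of the 40 reached an unadjusted p under 0.05. All 3 comparisons with PBS share the same PBS samples, so the direction of a gene across them is not independent.

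TCA and GCA, which differ in the amino acid joined to cholic acid, were at the same dose and time. Between them 0 of the 40 genes passed (edgeR; DESeq2 also 0), and 1 reached an unadjusted p under 0.05, the receptor gene Nbr1, which was lower with GCA (log2 fold change -0.13, adjusted p = 0.9998), where 2.46% of all genes did. The estimates ran from -0.13 to 0.13, and the 95% intervals of 39 of 40 genes lay within 0.5 of 0, again without Atg10. A difference between the conjugates larger than 0.5 was thus outside the interval of each of these 39 genes.

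Tβ-MCA and TCA are both taurine conjugates, but the labels give them different doses, so structure and dose cannot be told apart. Atg16l2 (log2 fold change 0.55, SE 0.10, adjusted p = 0.0323), Atg7 (0.33, SE 0.07, adjusted p = 0.0346) and Atg5 (0.37, SE 0.10, adjusted p = 0.0492) were higher with Tβ-MCA, 3 of the 40 or 7.50%, where 3.51% of all genes passed, 2.22% higher. Gabarapl1 (0.42, adjusted p = 0.0601) and Atg2b (0.27, adjusted p = 0.0575) were just outside. Without Tβ-MCA replicate 5 there were 8 of 40, 7 higher and 1 lower, where 15.3% of all genes passed, 7.17% higher and 8.12% lower. Leaving out any other sample of these groups gave 0 of 40, with 5 to 13 genes at an unadjusted p under 0.05.

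A further list of 69 genes around the core machinery, of which 66 were tested, had 7 that rose with Tβ-MCA and none that fell (10.6%, where all genes gave 7.62%). They were 4 of 15 tested fusion genes and 3 of 18 genes of nutrient and energy sensing upstream of ULK1, while none of 7 transcription factors, 12 PI3P and lipid transfer genes and 14 selective receptors passed. Vps39 (log2 fold change 0.58), Vps11 (0.42) and Vps18 (0.48) encode 3 of the 6 subunits of the HOPS tethering complex, which brings autophagosomes and lysosomes together. The other subunits did not pass, with 0.21 for Vps41, 0.17 for Vps33a and 0.05 for Vps16 (adjusted p = 0.0771, 0.109 and 0.739). Vps39 was at 49.4, 60.5 and 60.2 CPM in PBS and 94.4, 90.1 and 70.5 CPM with Tβ-MCA. Tecpr1 (0.79), also linked to fusion, was at 28.0, 34.4 and 37.7 CPM in PBS and 65.2, 62.1 and 45.3 CPM with Tβ-MCA. The remaining 3, Tsc1 (0.38), Tsc2 (0.31) and Sesn3 (1.11), encode restraints on mTORC1. Adjusted p-values of the 7 lay between 0.0206 and 0.0338. Other restraints on mTORC1 in the list did not pass and had estimates of either sign. They were below 0 for Sesn2 (-0.41), Ddit4 (-0.41), the AMPK subunit Prkaa1 (-0.28) and Deptor (-0.19), among others (adjusted p = 0.0826, 0.097, 0.0526 and 0.432). They were above 0 for Sesn1 (0.11) and the AMPK subunits Prkag2 (0.18) and Prkag1 (0.01), with adjusted p = 0.517, 0.204 and 0.951.

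Sesn3, a sestrin, was at 5.16, 3.001 and 3.61 CPM in PBS and 11.2, 9.40 and 4.92 CPM with Tβ-MCA, so Tβ-MCA replicate 5 was within the PBS range. It was the only gene of the list that met the study's cutoffs. Tfeb, the transcription factor of lysosomal and autophagy genes, gave 0.02 and Mtor 0.04, with adjusted p-values of 0.872 and 0.794. Without replicate 5, 16 of 67 tested genes of the list passed, 11 higher (16.4%) and 5 lower (7.46%), where 8.52% of all genes were higher and 9.44% lower in that fit. The lower ones were Prkaa1, Mlst8, Sesn2, Ddit4 and Trp53inp1. None of these lower genes passed over all samples.

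Samples with the same replicate number also moved together for some of the genes. Replicate 3 was the lowest of its group in all 4 groups for Sqstm1, Gabarap, Gabarapl2, Map1lc3b and Atg12, 5 of 40 genes or 12.5%, where this held for 8.31% of all genes tested. It was the highest in all 4 groups for Wipi1, Atg2b, Atg14, Atg101, Optn, Map1lc3a and Uvrag, 7 of 40 or 17.5%, where it held for 8.21% of all. Wipi1, a reader of PI3P, was at 133 CPM in PBS replicate 3 against 104 and 96.1 CPM in the other two, and at 129 CPM in TCA replicate 3 against 103 CPM in each of the others. What the replicate numbers stand for is not stated in the sources used here.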

How the data were processed

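Messenger RNA of 12 neutrophil samples was sequenced from stranded libraries. Per the labels, the cells were Ly6G+ and sorted with magnetic beads, while by the study's methods they were purified on a separating medium with an enrichment kit. The submitters' processing notes name Trimmomatic 0.36, STAR 2.5.3a, featureCounts of Subread 1.5.1 and GRCm38/mm10. The authors deposited raw counts per gene, and RPKM values calculated from these counts, which recalculation matched within a relative difference of 1.3e-06. Whether counting used the strand is not given in the sources used here. Exons of 28 of the 40 genes overlapped no other gene of GENCODE vM21.

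The counts were normalized by TMM (factors 0.972 to 1.03) and filtered with filterByExpr, which left 16761 genes, or 17131 without Tβ-MCA replicate 5. CPM values use the TMM library sizes. Groups were compared with edgeR 4.0.16 (robust quasi-likelihood test, R 4.3.3, limma 3.58.1) over all 12 samples, with Benjamini-Hochberg adjustment over all genes tested. A count under 3, which is 0.0725 to 0.0916 CPM, was taken as not detectable. RPKM values were used for levels and ratios between genes. The scripts were tested on simulated data. DESeq2 1.42.0, RLE size factors, total library size, other filters, only the 2 groups compared, a replicate block and each sample left out were alternatives. The leave-one-out fits assumed a common spread over groups. Ratios, promoters and plots were made in Python 3.11.15 (pandas 2.3.3, numpy 2.4.6, matplotlib 3.10.9, scipy 1.17.1).

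The 40 genes, the further list, the markers and the tests were chosen with earlier results of these data known. Values in every sample are given for genes with an adjusted p under 0.05 with or without Tβ-MCA replicate 5, for the 2 genes of lowest p with TCA and with GCA, for the ATG8 family and for Sqstm1, and levels for the 5 highest and 5 lowest genes in PBS. Wipi1, the genes whose promoters are shown, the HOPS subunits, the restraints on mTORC1 and the marker sum without Fn1 and F13a1 were chosen after their values were seen. The further list comprises nutrient sensing, transcription factors, PI3P regulators, selective receptors and fusion genes, and 2 of its 69 symbols matched no row of the table.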

Additional observations from a re-analysis of the deposited data

How the results depend on the processing

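Against PBS, the 7 autophagy genes called with Tβ-MCA were 9 with DESeq2, 7 with RLE size factors (6 shared), 8 with total library size, 6 with no filter and 8 when every sample had to reach 10 counts. The count was 0 when only the 2 groups were compared, and 0 to 11 when single samples were left out. For the further list, 7 genes became 13 with DESeq2, 14 with no filter, 0 with only the 2 groups and 0 to 16 with single samples left out. Between Tβ-MCA and TCA, 3 genes became 5 with DESeq2, 0 with only the 2 groups and 0 to 8 with single samples left out. The cause of these shifts was not tested. With TCA and with GCA the count was 0 of 40 in every alternative.

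With the replicate number as a block, 8 autophagy genes passed for Tβ-MCA against PBS (7 higher, 1 lower, 5 shared) and 7 against TCA (6 higher, 1 lower). Atg5 (adjusted p = 0.0584) and Atg2b (0.0575) were not among the 8, which gained Pik3r4, Stx17 and, lower, Atg4d. Deviations from the group means gave an average r of 0.189 for the 15 pairs that share a number (lowest 0.0597) and of -0.0716 for the 39 that do not. Between bile acid groups a sample correlated best with its own number in 15 of 18 cases, a hint from the data and not from the design. Since 1 or more pairs lay under an r of 0.1, the numbers were not treated as pairs.

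Of single genes with Tβ-MCA, 9 log2 fold changes near 0 turned sign. Sqstm1 was -0.0108 with the replicate block and ranged from -0.0262 (without PBS replicate 3) to 0.0685 with single samples left out, and it was -0.0078 without Tβ-MCA replicate 4. Map1lc3b ranged from -0.1108 (without PBS replicate 3) to 0.1147, and was -0.0447 and -0.0118 without Tβ-MCA replicates 4 and 5. Gabarapl2 ranged from -0.0651 (without PBS replicate 3) to 0.1139. Map1lc3a ranged from -0.0698 (without PBS replicate 6) to 0.1051, and was -0.0601 without Tβ-MCA replicate 3. The 7 called genes kept a positive estimate in all 13 alternatives, lowest for Atg2b at 0.20, and their highest adjusted p-values lay between 0.116 and 0.211. Of 122 counts of called genes, 97 stayed within 1.5 times the main count, where a main count of 0 that stayed 0 was taken as unchanged. The main count was 0 for TCA and GCA against PBS, GCA against TCA, and Tβ-MCA at the study's cutoffs. The 97 therefore say little about the counts above 0, which shifted as given above. With 3 samples a group, a gene that did not pass may differ by any amount within its interval.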
